A study of Mus musculus with 48 samples.

Results

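The genes described here are transcription factors that hold or mark naive pluripotency in mouse cells. In this state a cell can still form every tissue of the embryo proper. The list of 10 was taken as given (Pou5f1, Sox2, Klf2, Klf4, Klf5, Esrrb, Tfcp2l1, Tbx3, Prdm14 and Zfp42), and each symbol was matched to 1 Ensembl gene, so that 10 of the 21943 genes with a count are described. The cells came from inner cell masses (ICMs) at E3.75, when the ICM is dividing into progenitors of the epiblast (pEPI) and of the primitive endoderm (pPrE). The question was which of these factors already differed between the pEPI and pPrE progenitors and which were still shared by both.

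The embryos came from natural matings of Pdgfra H2B-GFP/+ mice, in which a human H2B fused to enhanced GFP sits in the Pdgfra locus, with F1 hybrids of C57BL/6JxCBA/J, and every cell came from such crosses without further treatment. The outer trophectoderm was removed by immunosurgery, the ICMs were dissociated, and Smart-seq2 libraries, made from full-length cDNA without molecular identifiers or strand information, were sequenced for each cell. The cells came from 3 embryos, chosen as positive for the reporter with scattered GFP-positive cells in the ICM. The sample titles call every cell WT, while the cross and the reporter are given in the published methods. No label ties a cell to an embryo, so the 48 cells were treated as 1 sample, and intervals over cells do not cover differences between the 3 embryos: SDs are spreads between cells, and no test was made between the branches. The branch of each cell was read by eye from the leaves of a published dendrogram, which placed 25 cells on the pEPI side and 23 on the pPrE side. That dendrogram was drawn from the expression of the same cells, so a difference between the branches is not independent of the grouping.

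As background, naive pluripotency is held by a network of factors that bind many of the same enhancers and keep each other expressed. Pou5f1 (Oct4) and its DNA-binding partner Sox2 form its core, and Klf2, Klf4, Klf5, Esrrb, Tfcp2l1, Tbx3 and Prdm14 link that core to LIF, Wnt and FGF signalling. In the ICM the network is present before the lineages part, and it is then kept in the epiblast and largely lost from the primitive endoderm, where Gata6, Sox17 and Gata4 take over.

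The 48 libraries held 1718970 to 7342785 counts on genes, with a median of 3751329 in pEPI and 4251373 in pPrE cells, and 9202 to 11547 genes were detected per cell. Levels are given as FPKM, counts divided by exon length and by library size, and gene positions are those of GENCODE M21 on GRCm38. On the scale of branch means, the branches carried the markers of their names. Of 13 pPrE markers, the 11 with a mean of at least 1 FPKM were each at least 2-fold higher in pPrE, and of 4 pEPI markers, Nanog and Fgf4 were at least 2-fold lower there. The summed FPKM of 10 trophectoderm markers ranged from 16.6 to 196 among pEPI cells and from 21 to 121 among pPrE cells, and Cdx2, which defines that lineage, had counts in 2 pEPI cells and 1 pPrE cell. Of the 5 trophectoderm markers at 1 FPKM or more, Krt18 alone was 2-fold lower in pPrE, and the part of such RNA in the results below was not tested. Counts on 4 Y-linked genes were 242 to 1298 in 29 cells (17 pEPI and 12 pPrE) and 0 to 1 in the other 19 (8 pEPI and 11 pPrE).

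The stretches before the transcription start of 4 of the factors are shown because these factors span the range of patterns described below: Klf2 and Sox2 were several-fold higher in pEPI, Zfp42 was graded, and Pou5f1 was shared. Each line gives the 250 bases before the RefSeq start on GRCm38.p6, read along the gene. RefSeq starts differ from the GENCODE gene positions given below. The windows of Klf2 and Pou5f1 reach into the GENCODE gene, and that of Sox2 ends short of it. Distances are from the RefSeq start. Capitals mark 3 kinds of letters found on either strand: ATGCAAA, the octamer that POU factors such as Oct4 bind (TTTGCAT on the other strand), GGGTG, the core of the CACCC element of Krüppel-like factors (CACCC on the other strand), and GGGCGG, the GC box (CCGCCC on the other strand). The windows are chr8:72318812-72319061 (plus strand) for Klf2, chr3:34649745-34649994 (plus strand) for Sox2, chr8:43307010-43307259 (minus strand) for Zfp42 and, as 1 of 2 RefSeq windows, chr17:35505782-35506031 (plus strand) for Pou5f1.
Klf2: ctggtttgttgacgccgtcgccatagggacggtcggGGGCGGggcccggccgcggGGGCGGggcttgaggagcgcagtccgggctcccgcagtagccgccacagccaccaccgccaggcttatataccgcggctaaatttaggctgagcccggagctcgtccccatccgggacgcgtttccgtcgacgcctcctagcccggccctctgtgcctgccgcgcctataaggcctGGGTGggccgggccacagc
Sox2: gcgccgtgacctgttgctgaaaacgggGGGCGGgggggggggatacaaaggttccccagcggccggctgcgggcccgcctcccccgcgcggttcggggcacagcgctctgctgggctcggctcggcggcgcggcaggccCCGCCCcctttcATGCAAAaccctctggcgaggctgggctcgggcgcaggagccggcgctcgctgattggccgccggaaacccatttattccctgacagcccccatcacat
Zfp42: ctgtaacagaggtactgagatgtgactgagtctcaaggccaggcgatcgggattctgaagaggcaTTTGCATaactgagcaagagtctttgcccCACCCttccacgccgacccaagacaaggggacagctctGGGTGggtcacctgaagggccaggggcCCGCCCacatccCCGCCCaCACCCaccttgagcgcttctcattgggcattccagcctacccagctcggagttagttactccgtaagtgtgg
Pou5f1: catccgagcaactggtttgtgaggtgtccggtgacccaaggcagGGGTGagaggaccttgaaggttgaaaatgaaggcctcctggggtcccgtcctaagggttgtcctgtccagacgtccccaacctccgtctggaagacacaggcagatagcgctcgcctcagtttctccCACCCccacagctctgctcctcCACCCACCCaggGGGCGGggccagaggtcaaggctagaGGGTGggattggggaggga
The octamer letters lay 99 to 93 bases before the start of Sox2 and, on the other strand, 185 to 179 bases before that of Zfp42, and they are in 4.1% of all 32851 windows of this length. GGGTG was found 5 times before Pou5f1, where a pair of matches overlap by 1 base, 3 times before Zfp42, once before Klf2 and not before Sox2, and 52.0% of all windows hold it. The GC box was found 2 times each before Klf2, Sox2 and Zfp42 and 1 time before Pou5f1, against 32.7% of windows with at least 1. Windows were found for 7 of the 10 factors (those 4, Klf4, Esrrb and Tfcp2l1), and in none of the 7 were the Sox letters CATTGT, the nuclear receptor letters AAGGTCA or the T-box letters GGTGTGA found, which are in 10.7%, 4.1% and 3.3% of all windows. The GC content of the 4 windows was 71.2% for Klf2, 72.0% for Sox2, 58.4% for Zfp42 and 62.0% for Pou5f1, and the median of all windows was 52.4%.

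Klf2, Prdm14 and Sox2 were 3.56-fold to 10.3-fold higher in pEPI on the scale of mean FPKM, Zfp42, Esrrb, Klf4 and Tfcp2l1 were 1.37-fold to 1.82-fold higher in pEPI, and Pou5f1 and Tbx3 were within 1.22-fold. Klf5 alone of the 10 was higher in pPrE by more than 1.5-fold over the 48 cells. At a threshold of 2-fold, 3 of the 10 factors were lower in pPrE, against 9.03% of the 10880 genes with a mean of at least 1 FPKM, and 0 were higher, against 6.20%. The median log2 ratio of mean FPKM (pPrE over pEPI) was -0.68 over the 10 factors and 0.002 over all 10880 genes, of which 5% lay under -1.43 and 5% above 1.14. All 10 factors passed that minimum, and the lowest branch mean among them was 1.32 FPKM (Prdm14 in pPrE). The range over cells in pEPI overlapped that in pPrE for each of the 10, as it did for every gene, since 0% of the 10880 genes had ranges that did not overlap.

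**Figure D1:**
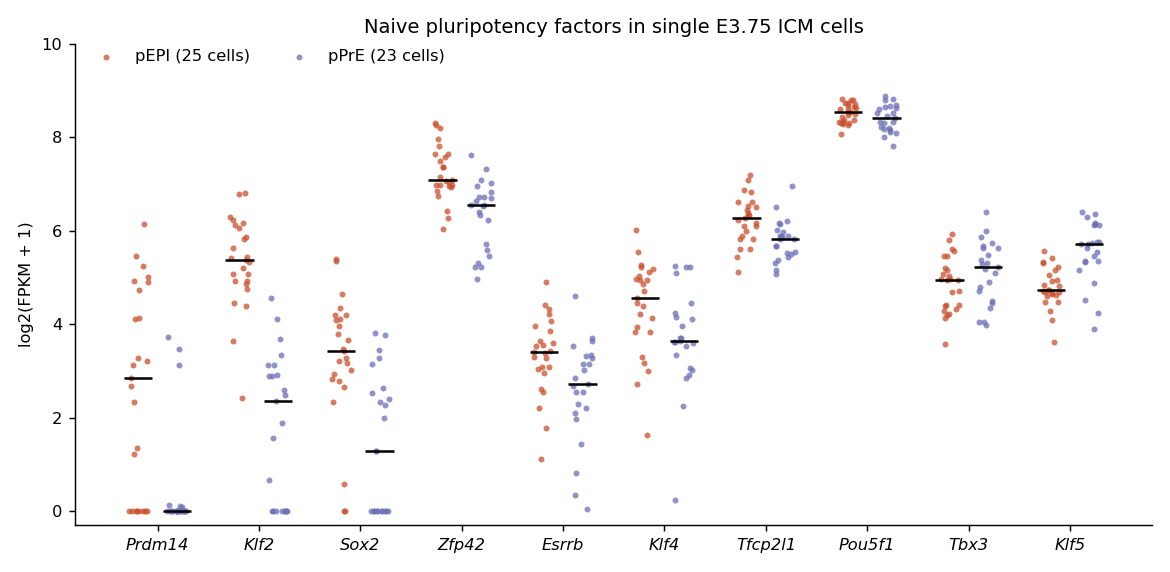
Level of the 10 factors in each cell as log2(FPKM + 1), with pEPI cells (25) in red, pPrE cells (23) in blue and a bar at the median of each branch. Klf2 stands apart most, with no pPrE cell above the pEPI median of 40.6 FPKM, while the 2 clouds of Pou5f1 lie side by side and Klf5 is the factor that sits higher in pPrE.

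**Figure D2:**
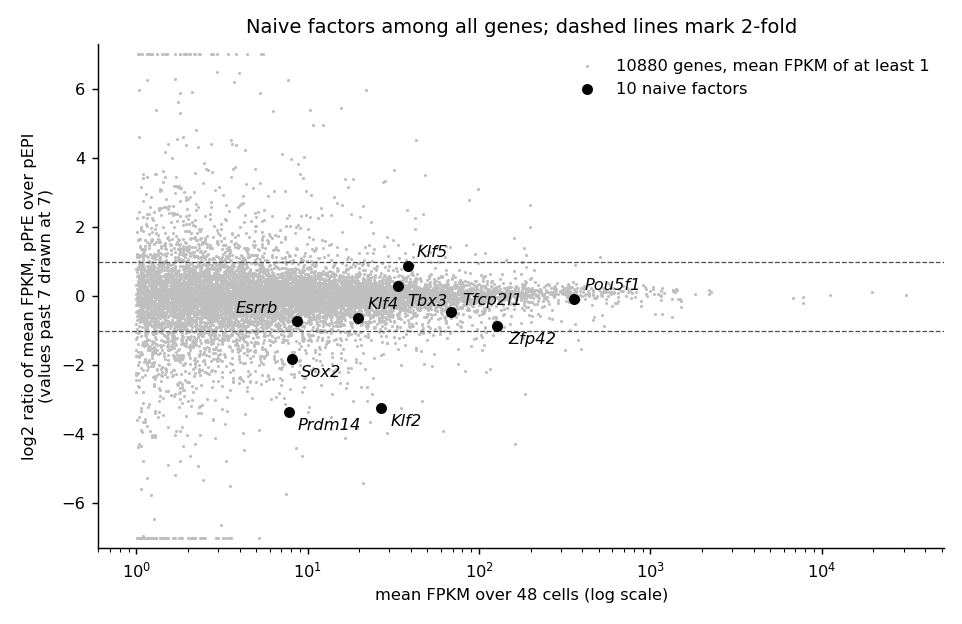
Log2 ratio of mean FPKM, pPrE over pEPI, against mean FPKM over the 48 cells on a log axis, for 10880 genes (grey) and the 10 factors (black), with dashed lines at 2-fold and ratios past 7 drawn at 7. Prdm14, Klf2 and Sox2 lie below the lower line and Klf5 is the highest of the 10, under the upper line.

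Klf2 (chr8:72319033-72321656, plus strand), a Krüppel-like zinc finger factor that sustains naive stem cells, separated the branches most. It had 4.32 FPKM in the lowest pEPI cell, 40.6 in the median and 111 in the highest. In pPrE cells the lowest value was 0, the median 4.13 and the highest 22.5. No pPrE cell reached the pEPI median, and 4 of the 25 pEPI cells lay at or under the highest pPrE cell. The means were 46.9 ± 27.2 (SD, n = 25 cells) and 4.94 ± 5.85 (SD, n = 23 cells), a log2 ratio of -3.25 (95% counting interval -3.35 to -3.15) or 9.49-fold. Klf2 was the only one of the 10 whose difference between means exceeded the sum of both SDs. It was higher in the pEPI cell in 97.2% of all pairings of a pEPI with a pPrE cell, and 65.3% of its variance on the log2(FPKM + 1) scale lay between the branches, a share that 0.0735% of the 10880 genes reached. All 25 pEPI cells had Klf2 counts (exact binomial 95% interval 86.3% to 100%), as did 15 of 23 pPrE cells (65.2%, interval 42.7% to 83.6%). Among the 10880 genes its ratio had rank 141 from the lowest, so that 1.30% of genes had a ratio as low.

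Prdm14 (chr1:13113457-13127163, minus strand), a PR-domain factor that represses FGF receptor genes and DNA methyltransferases in naive cells, had the lowest ratio of the 10 but rested on few cells. Its level in pEPI was 0 in the lowest cell, 6.22 FPKM in the median and 70.2 in the highest, in well C8. In pPrE the lowest and the median were both 0 and the highest was 12.3 FPKM, in well D7. The means were 13.6 ± 17.8 (SD, n = 25) and 1.32 ± 3.52 (SD, n = 23), a log2 ratio of -3.37 (-3.52 to -3.22) or 10.3-fold. Counts were found in 17 of 25 pEPI cells (68.0%, exact binomial interval 46.5% to 85.1%) and in 6 of 23 pPrE cells (26.1%, 10.2% to 48.4%), and at a minimum of 10 CPM (counts scaled to the library total) in 15 and 3 cells. D7 held 36.9% of all Prdm14 counts of pPrE, and without this cell the ratio was -4.05. The 3 pPrE cells with more than 1 FPKM were D7, C6 (10.1) and B8 (7.75).

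Sox2 (chr3:34650405-34652461, plus strand), the HMG-box partner of Oct4, was less sharply divided. It had 0 FPKM in the lowest pEPI cells, 9.66 in the median and 41 in the highest, and in pPrE cells 0, 1.42 and 13.1. The means were 12.4 ± 10.4 (SD, n = 25) and 3.48 ± 4.27 (SD, n = 23), a log2 ratio of -1.83 (-1.95 to -1.72) or 3.56-fold. The difference between the means did not exceed the larger SD, and 28.6% of the variance of log2(FPKM + 1) lay between the branches. Of the pEPI cells 23 of 25 had counts (92%, exact binomial interval 74.0% to 99.0%), and of the pPrE cells 13 of 23 (56.5%, 34.5% to 76.8%). At a minimum of 10 CPM these were 21 and 7 cells, so several pPrE cells held Sox2 at a low level. The ratio was -1.39 in the cells with Y-linked counts and -2.47 in those without, with pEPI means of 8.73 ± 5.94 (SD, n = 17) and 20.2 ± 13.8 (SD, n = 8).

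The 3 factors were not missing from the same pPrE cells throughout. They were picked by their lower mean in pPrE, so fewer pPrE cells with all 3 is not an independent result. Whether their detection was linked was not tested. Counts of all 3 were found in 17 of the 25 pEPI cells, 6 more had Sox2 and Klf2 without Prdm14, and 2 (B4 and E4) had Klf2 alone. In pPrE, all 3 were found in 3 of 23 cells, 2 of the 3 in 7 cells, 1 in 11 cells and none in 2 cells (B5 and F2). Among the 11 pPrE cells with 1 of them, 6 had Klf2, 4 had Sox2 and 1 had Prdm14 at a minimum of 1 count. Some of these rest on very few counts: B7, D8 and C5 had 1 count of Prdm14 each, and D3 had 3 of Klf2. At a minimum of 10 CPM, an alternative chosen after seeing the data, 10 pPrE cells had none of the 3, 8 had 1, 3 had 2 and 2 had all 3, against 0, 3, 9 and 13 pEPI cells. The pPrE cells with all 3 were B8, C6 and D7. B8 had the highest Sox2 (13.1 FPKM), Esrrb (23.2) and Zfp42 (196) of the pPrE branch, with 202 FPKM of Nanog and 0 of Sox17, but also the highest Pdgfra of the 48 cells (40.8) with 38.7 of Gata4 and 13.1 of Gata6. D7 had the highest Klf2 (22.5), Prdm14 (12.3) and Pou5f1 (473) of that branch, with 67.1 FPKM of Nanog and 19.1 of Sox17, but also the highest Gata6 of the 48 cells (48.6) and 53.2 of Gata4. On the pEPI side, E5 had the lowest Klf2 (4.32 FPKM), together with 56.6 FPKM of Nanog, 27.7 of Sox17, 39.7 of Gata4 and 46.1 of Gata6. At least 7 of the 10 factors were detected in every cell, since the other 7 had counts in each of the 48. For Esrrb in C5 and Klf4 in D1 this rests on 1 count. At a minimum of 10 CPM, Esrrb was found in 24 pEPI and 20 pPrE cells, and Klf4 in 24 and 22.

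Zfp42 (Rex1, chr8:43295063-43306980, minus strand), a zinc finger protein long used to mark naive cells, was the most divided of the graded factors. It had 64.7 FPKM in the lowest pEPI cell, 134 in the median and 316 in the highest, and in pPrE cells 30.4, 92.6 and 196. The means were 163 ± 69.1 (SD, n = 25) and 89.8 ± 42.6 (SD, n = 23), a log2 ratio of -0.86 (-0.89 to -0.84) or 1.82-fold, and the difference was larger than either SD. Of the 23 pPrE cells, 16 lay within the pEPI range, and 32.5% of the variance of log2(FPKM + 1) lay between the branches. Reads of Zfp42 can be shared with the pseudogene Zfp42-ps1, since 85 of its 1950 stretches of 75 transcript bases also occur there.

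Esrrb (chr12:86361117-86521628, plus strand), an orphan nuclear receptor, had 1.16, 9.54 and 29 FPKM in the lowest, median and highest pEPI cell, and 0.0269, 5.62 and 23.2 in pPrE. Its means were 10.6 ± 6.22 (SD, n = 25) and 6.52 ± 5.02 (SD, n = 23), a log2 ratio of -0.71 (-0.76 to -0.65). Klf4 (chr4:55527143-55532466, minus strand), the Krüppel-like factor of the reprogramming cocktail, had 2.09, 22.7 and 63.6 FPKM in pEPI and 0.177, 11.5 and 37 in pPrE. Its means were 23.8 ± 14.2 (SD, n = 25) and 15.2 ± 10.7 (SD, n = 23), a log2 ratio of -0.65 (-0.70 to -0.60). Both factors were thus lower in pPrE on average, but the branches overlapped over most of their range: 20 of 23 pPrE cells for Esrrb and 22 for Klf4 lay within the pEPI range, and neither difference exceeded an SD.

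Tfcp2l1 (chr1:118627945-118685168, plus strand), a CP2-family factor downstream of LIF and Stat3, had 33.6, 76.5 and 146 FPKM in the lowest, median and highest pEPI cell, and 32.8, 55.8 and 123 in pPrE. The means were 78.9 ± 27.9 (SD, n = 25) and 57.4 ± 19.7 (SD, n = 23), a log2 ratio of -0.46 (-0.47 to -0.44). Only 2 of 23 pPrE cells reached the pEPI median, although 22 lay within the pEPI range. Esrrb, Klf4 and Tfcp2l1 had at least 1 count in each of the 48 cells, and so did 33.5% of the 10880 genes.

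Pou5f1 (chr17:35506018-35510772, plus strand), which encodes Oct4, was the most evenly held of the 10. It had 267, 372 and 449 FPKM in the lowest, median and highest pEPI cell, and 224, 340 and 473 in pPrE. The means were 369 ± 51.5 (SD, n = 25) and 345 ± 68.0 (SD, n = 23), a log2 ratio of -0.10 (-0.11 to -0.08), so the difference of 1.07-fold was smaller than either SD although the counting interval left out 0. The squared coefficient of variation was 0.0195 in pEPI and 0.0389 in pPrE, the lowest of the 10 factors in both branches. Its level of 358 FPKM over all cells had rank 135 among the 10880 genes. The antisense gene Gm19553 covers 317 of its 2248 exon bases, and reads there cannot be told apart without strand, but Gm19553 itself had 79 counts in the 48 cells against 160815 for Pou5f1.

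Tbx3 (chr5:119670669-119684724, plus strand), a T-box factor that acts below LIF and PI3K in stem cells and that can also promote extraembryonic endoderm, was shared as well. It had 10.9, 29.8 and 60.2 FPKM in the lowest, median and highest pEPI cell, and 14.8, 36.1 and 83.2 in pPrE. The means were 30.4 ± 12.9 (SD, n = 25) and 37.2 ± 17.2 (SD, n = 23), a log2 ratio of 0.29 (0.26 to 0.32), and 21 of 23 pPrE cells lay within the pEPI range. Of the variance of Tbx3 on the log2(FPKM + 1) scale, 4.11% lay between the branches, the lowest share of the 10. For Pou5f1 it was 4.87%. Both shares lay above the median of 1.92% over the 10880 genes, and 32.2% and 28.2% of genes reached them. The antisense gene Tbx3os1, with 467 counts against 45525, covers 115 of its 6624 exon bases.

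Klf5 (chr14:99298691-99315036, plus strand), the third Krüppel-like factor of the list, went the other way. Its lowest, median and highest values were 11.3, 25.6 and 46.1 FPKM in pEPI and 13.9, 51.2 and 83.8 in pPrE. The means were 27.7 ± 8.19 (SD, n = 25) and 50.2 ± 19.9 (SD, n = 23), a log2 ratio of 0.86 (0.83 to 0.89) or 1.81-fold. This difference was larger than either SD but under 2-fold. In pPrE, 20 of 23 cells reached the pEPI median, and Klf5 was higher in the pPrE cell in 84.3% of all pairings of cells. At a threshold of 1.5-fold Klf5 was the 1 factor counted as higher, against 12.3% of all genes, and 6 factors were lower (the 3 above, Zfp42, Esrrb and Klf4), against 16.4%.

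Klf2, Klf4 and Klf5 can bind the same CACCC elements and can stand in for each other in stem cells, and here the branches differed in which of them was the most abundant. Their summed level was 98.4 ± 36.9 FPKM (SD, n = 25) in pEPI and 70.3 ± 23.6 (SD, n = 23) in pPrE. Of that sum, Klf2 was 45.4% ± 15.6 (SD, n = 25) in pEPI and 7.11% ± 9.37 (SD, n = 23) in pPrE. Klf5 was 30.6% ± 10.5 in pEPI and 71.1% ± 15.8 in pPrE, while Klf4 was 24% ± 10.5 and 21.8% ± 11.8. In pEPI, Klf2 was the highest of the 3 in 18 of 25 cells, Klf5 in 5 (A2, C7, E2, E4 and E7) and Klf4 in 2 (C3 and E5). In pPrE, Klf5 was the highest in 23 of 23. These levels depend on the length given to each gene. With the longest transcript in place of all exons, an alternative chosen after seeing the data, Klf2 was 39.4% ± 14.9 and Klf5 40% ± 11.8 of the sum in pEPI, Klf2 was the highest in 15 pEPI cells and Klf5 in 10, and in pPrE Klf5 was the highest in 23 of 23. The longest run shared exactly by transcripts of any 2 of the 3 genes was 13 to 15 bases.

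**Figure D3:**
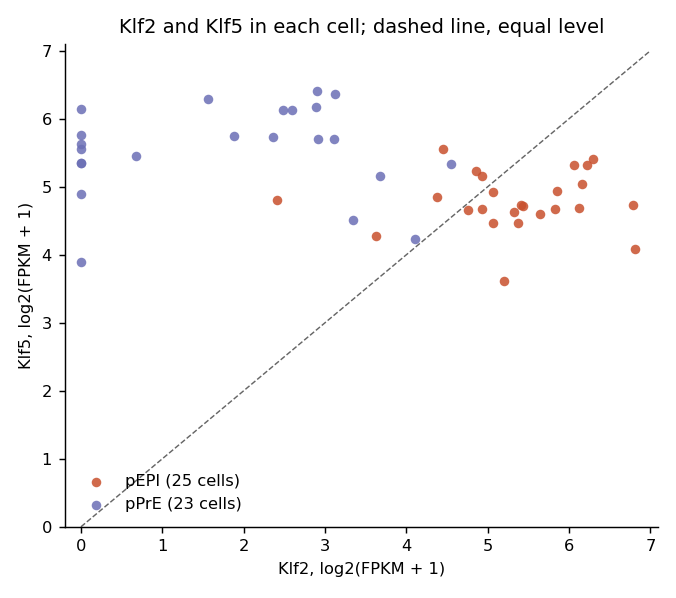
Klf5 against Klf2 in each cell, both as log2(FPKM + 1), with pEPI cells in red, pPrE cells in blue and a dashed line where the levels are equal. All 23 pPrE cells and 6 of the 25 pEPI cells lie above the line, with Klf5 higher than Klf2 (10 pEPI cells with lengths of the longest transcript).

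Of the 17 genes Klf1 to Klf17, 11 had a mean of at least 1 FPKM, of which 1 (Klf2) was at least 2-fold lower in pPrE, none was 2-fold higher and the median log2 ratio was -0.43. A count of 1 in 11 is close to the 9.03% of all genes that were 2-fold lower. Klf10 (-0.80), Klf3 (-0.59), Klf8 (-0.44) and Klf9 (-0.43) had log2 ratios below 0, and Klf11 (0.50), Klf6 (0.47), Klf16 (0.28) and Klf13 (0.18) above 0. Klf14 had no count.

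Pou5f1, Zfp42 and Tfcp2l1 had the 3 highest levels per length in both branches. Over the 48 cells the order of mean FPKM was Pou5f1 (358), Zfp42 (128), Tfcp2l1 (68.6), Klf5 (38.5), Tbx3 (33.7), Klf2 (26.8), Klf4 (19.7), Esrrb (8.67), Sox2 (8.13) and Prdm14 (7.73). The step from Pou5f1 to Zfp42 and that from Tfcp2l1 to Klf5 exceeded the SDs of both neighbours, and the other neighbours did not differ beyond their spread. Within pEPI, Klf2 had rank 4, and within pPrE rank 8, below Klf4 and Esrrb.

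The graded factors differed more between the branches in cells without Y-linked counts. In these 19 cells the log2 ratio was -1.52 for Zfp42, -1.38 for Esrrb and -1.16 for Klf4, and 6 of the 10 factors were past 2-fold lower in pPrE, against 13.2% of all genes in these cells, and 0 were higher, against 12.5%. In the 29 cells with Y-linked counts the ratios were -0.44, -0.26 and -0.33, and 3 factors were past 2-fold lower, against 10.9% of all genes there, and 0 were higher, against 6.70%. For Zfp42 the pEPI means were 152 ± 49.8 FPKM (SD, n = 17) with and 186 ± 99.0 (SD, n = 8) without Y-linked counts, and the pPrE means 113 ± 40.9 (SD, n = 12) and 65.0 ± 29.2 (SD, n = 11). Prdm14 in pEPI was 6.03 ± 10.5 (SD, n = 17) with and 29.8 ± 19.9 (SD, n = 8) without. Klf2 (-3.19 and -3.44), Klf5 (0.78 and 0.85) and Pou5f1 (-0.11 and -0.04) had close ratios in the 2 sets. Y-linked counts mark the sex of the embryo, which cannot be told apart from the embryo itself, and the difference between the 2 sets of cells was not tested.

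**Figure D4:**
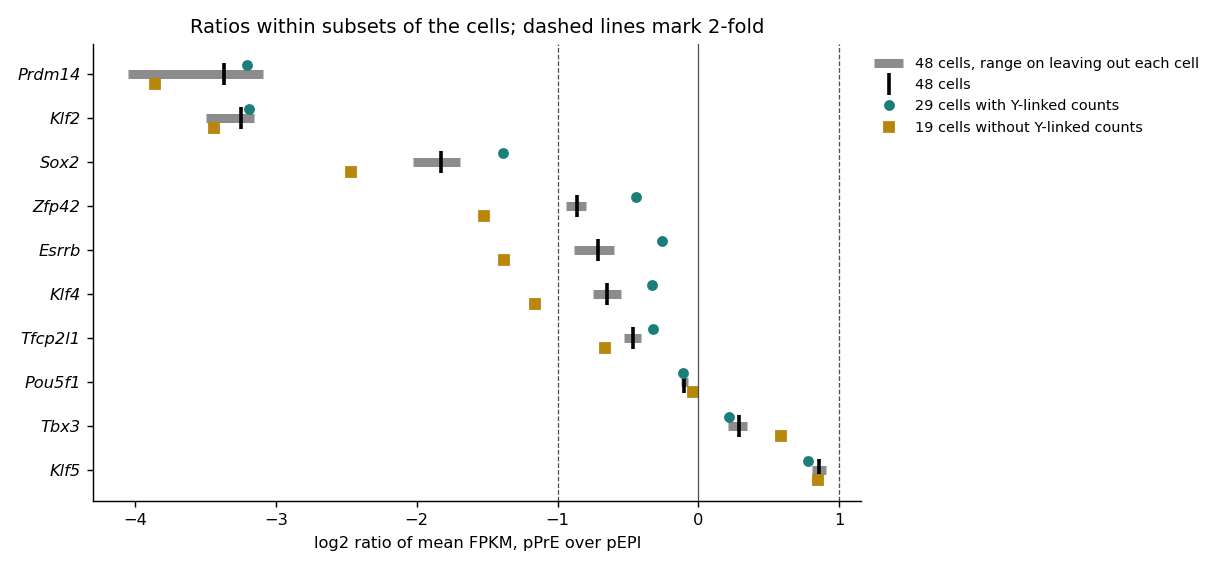
Log2 ratio of mean FPKM, pPrE over pEPI, for each factor in all 48 cells (black line, with a grey bar over the values when each cell was left out), in 29 cells with Y-linked counts (green) and in 19 without (ochre), with dashed lines at 2-fold. Zfp42, Esrrb and Klf4 pass the 2-fold line in the ochre set only, and Klf2, Prdm14 and Sox2 lie past it in both.

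Across cells the factors varied together only in part. Spearman's rho over the 48 cells, which carry the branch difference, had a median of 0.24 over the 45 pairs of factors, and its highest values were 0.62 for Sox2 with Klf2 and 0.60 for Sox2 with Prdm14. Within the branches the medians were 0.09 over 25 pEPI and 0.18 over 23 pPrE cells. Sox2 and Prdm14 had a rho of 0.59 within pEPI and 0.16 within pPrE. The pEPI cells with and without Y-linked counts differed in the mean of both genes (above), and within these sets the rho was 0.23 (17 cells) and 0.79 (8 cells). Esrrb and Tfcp2l1 had 0.49 within pEPI and 0.56 within pPrE, and 0.36 to 0.48 within the sets split by Y-linked counts in either branch. Tfcp2l1 and Zfp42 had 0.64 within pPrE and -0.34 within pEPI, where it was -0.47 in the cells with and 0.10 in those without Y-linked counts. All points share library chemistry, and many values of Sox2, Klf2 and Prdm14 in pPrE are 0.

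**Figure D5:**
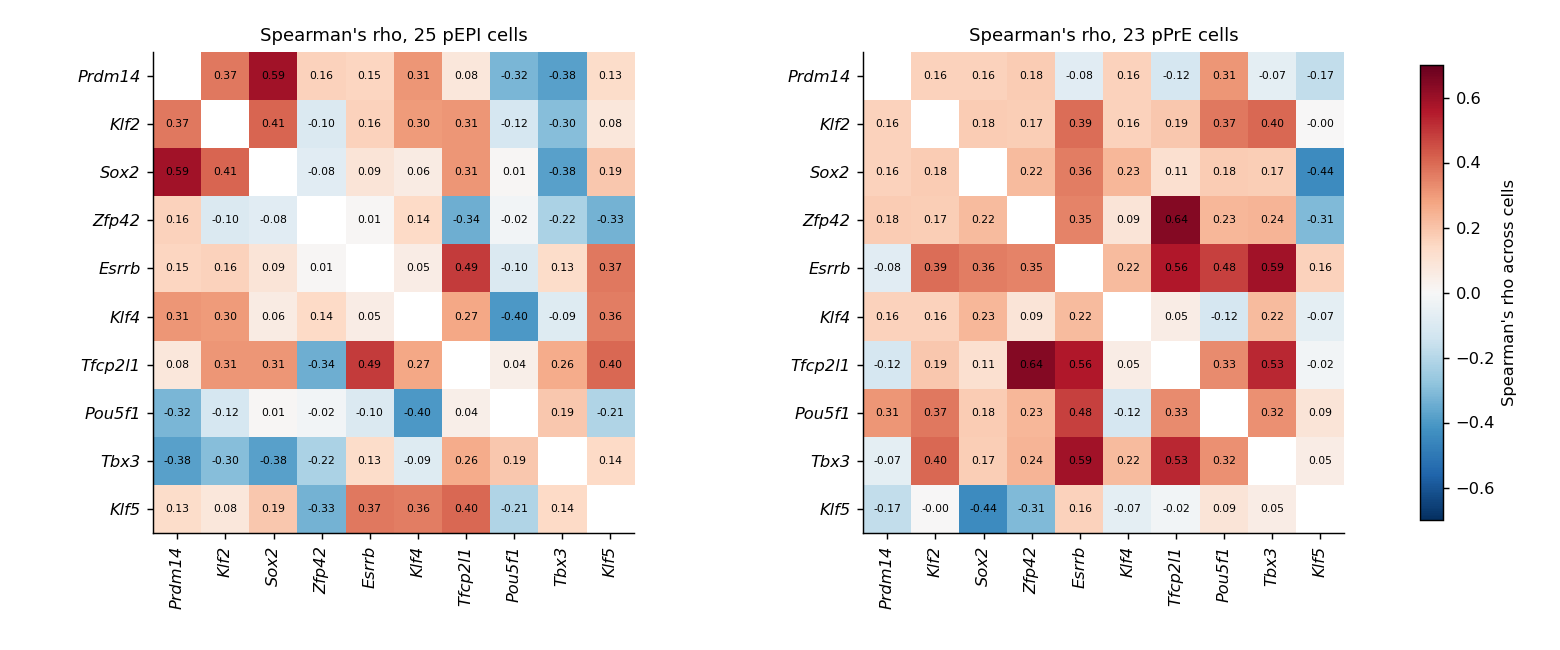
Spearman's rho between factors across 25 pEPI cells (left) and 23 pPrE cells (right), on a colour scale from blue (negative) to red (positive). Sox2 with Prdm14 (0.59) is the highest value on the left, and Tfcp2l1 with Zfp42 (0.64) on the right.

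Set against lineage markers, Klf2 had a rho of 0.78 with Nanog and -0.82 with Gata4 over the 48 cells, and these were 0.36 and -0.61 within pEPI and 0.39 and -0.23 within pPrE. Prdm14 had a rho with Nanog of 0.72 within pEPI and 0.25 within pPrE. That of Tbx3 with Nanog was -0.51 within pEPI and -0.18 within pPrE. In pEPI, Nanog itself was 226 ± 175 FPKM (SD, n = 17) in cells with and 504 ± 193 (SD, n = 8) in cells without Y-linked counts. Within these sets of pEPI cells, taken after seeing the data, the rho with Nanog was 0.55 and 0.81 for Prdm14, -0.71 and 0.71 for Tbx3, and 0.39 and -0.17 for Klf2, so that the sign for Tbx3 and Klf2 differed between the sets. Klf5 had a rho of 0.73 with Sox17, an endoderm factor, over the 48 cells, 0.27 within pEPI and 0.56 within pPrE. This rho also depended on the set: in pEPI it was 0.52 in cells with and -0.26 in cells without Y-linked counts. In pPrE it was 0.41 with and 0.71 without. Pou5f1 stayed between -0.26 and 0.22 with Nanog, Gata6, Sox17 and Gata4 over the 48 cells. With the total count of the cell, the rho of the 10 factors over the 48 cells lay between -0.05 and 0.13.

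Among 6082 genes with a mean of at least 5 FPKM, those most like each factor over the 48 cells were ranked by rho. The genes named are the highest of 6082 values, and such extremes can arise without a link. These values can also carry the branch difference, and none was tested. For Klf2 they were Cldn4 (0.81), Spic (0.80) and Nanog (0.78), and for Sox2 Mier3 (0.71), Nanog (0.66) and Hdac1 (0.63). For Klf5 they were the pPrE genes Sox17 (0.73), Tfpi (0.71) and F2r (0.70), and for Zfp42 Sod2 (0.67), Gm6798 (0.66) and Smagp (0.66). Tfcp2l1 was most like Prps1 (0.65), Ralb (0.60) and Usf1 (0.59), and Esrrb like D230025D16Rik (0.60), Tfcp2l1 (0.57) and Alg13 (0.56). Klf4 had Kdm5b (0.55), Pim3 (0.52) and Vstm5 (0.51), Tbx3 had Stag2 (0.56), Malat1 (0.54) and Pdgfra (0.54), and Pou5f1 had Adam15 (0.54), Anxa7 (0.48) and Elovl7 (0.48). Prdm14, with counts in 23 cells, was not ranked.

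Among 26 other genes of the pluripotency network, 24 had a mean of at least 1 FPKM, with a median log2 ratio of -0.35. Of these, 5 were at least 2-fold lower in pPrE, against 9.03% of the 10880 genes. Another 5 were at least 2-fold higher, against 6.20%. The lower ones included Fgf4 (-3.80), the ligand that pPrE cells respond to, Nanog (-2.85), Foxd3 (-2.20), Etv5 (-1.57) and Nr5a2 (-1.47). The higher ones included Lin28a (3.97), an RNA-binding protein that blocks let-7 maturation, at 0.993 ± 1.79 FPKM (SD, n = 25) in pEPI and 15.5 ± 15.8 (SD, n = 23) in pPrE. Gbx2 (1.73) was higher too. Nanog had 315 ± 221 FPKM (SD, n = 25) in pEPI and 43.7 ± 73.0 (SD, n = 23) in pPrE, with counts in every cell. The remaining 14 lay under 2-fold, and Sp5 had no count.

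When the cells were grouped by the first principal component of 3538 variable genes without the 10 factors, 47 of 48 cells kept their side (E5 moved), and the log2 ratios were -3.31 for Klf2, -3.13 for Prdm14, -1.81 for Sox2, -0.85 for Zfp42 and 0.83 for Klf5. When they were grouped by whether Nanog exceeded Gata6, 39 of 48 cells kept their side. The others (A1, B3, B8, C5, C6, D2, D7, E1 and F5) were all pPrE cells of the dendrogram with Nanog above Gata6. The sides were thus 34 and 14 cells. In A1, Nanog was 308 FPKM and Gata6 2.8. With this grouping the ratios were -3.66 for Klf2, -2.38 for Sox2 and 0.77 for Klf5. The 14 cells of the Gata6 side held Prdm14 in B7 and D8 alone, with 1 count each.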

How the data were processed

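The labels describe 48 single-cell Smart-seq2 libraries of E3.75 ICMs. Every label gives the same stage and every title the same genotype (WT), so the cells form 1 group. The values are read counts per gene that the authors deposited without normalization. The submitters' processing notes name STAR, HTSeq and mm10, and the methods name htseq-count on an Ensembl annotation. FPKM was computed here from the deposited counts, the union of exons in GENCODE M21 (GRCm38) and library sizes by the median of ratios. A log2 ratio is that of mean FPKM, pPrE over pEPI. Its 95% interval has the width of the exact interval of the summed counts, placed round the ratio of means, and is approximate. These intervals cover counting error only. They take reads as independent and can be too narrow even for that, since several reads can stem from 1 molecule. The binomial intervals take cells as independent draws. A threshold of 2-fold was read against all genes with a mean of at least 1 FPKM.

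The genes named are the 10 factors, the 8 other network genes with the largest ratios (1 of which is not reported here), Klf family genes at 1 FPKM or more, the markers, 4 Y-linked genes and, for each factor with a count in at least 24 cells, the 3 genes with the highest rho. Wells B8, D7 and E5, splits of the rho by Y-linked counts, and the antisense and pseudogene overlaps were singled out after their values were seen. The factors and the lists were chosen with earlier results of these data known. Alternatives covered library size, the summary of expression, pseudocounts (1 and 0.1), thinning to 1718970 counts, cells under 2500000 counts, well letters, single cells, Y-linked counts (a minimum of 100), the grouping, the fold (1.5), the expression minimum, the detection minimum and the gene length. Ratios were tested on simulated data, and the intervals were not. Scripts ran in Python 3.11.15 with scipy 1.17.1, pandas 2.3.3 and numpy 2.4.6, and figures were drawn in matplotlib 3.10.9.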

Additional observations from a re-analysis of the deposited data

How the results depend on the processing

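Each ratio was recomputed under 19 alternatives, 190 values in all. The sign was kept in each of the 190, and the side of the 2-fold threshold in 184. The 6 others were Esrrb at -1.03 with the mean of log2(FPKM + 0.1), Zfp42 at -1.04 and -1.0 without the cells of well letters B and E, and Klf4 (-1.16), Esrrb (-1.38) and Zfp42 (-1.52) in cells without Y-linked counts. All cells of letters B and E had Y-linked counts, so leaving them out is not independent of the split by Y-linked counts. The ranges were -4.78 to -2.99 for Klf2, -2.95 to -1.39 for Sox2 and 0.77 to 0.98 for Klf5. Prdm14 was at -2.12 with the mean of log2(FPKM + 1) and at -4.05 without D7, and the grouping by Nanog and Gata6 left it 2 counts on the pPrE side. The number of factors past the threshold and lower in pPrE went from 3 to 6 in cells without Y-linked counts (13.2% of all genes there) and at 1.5-fold, where 1 was higher. On leaving out single cells it was 3 throughout, and on leaving out a well letter 3 to 4.

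The share of all genes past the threshold moved more. It was 5.81% lower in pPrE with medians of FPKM + 1, 3.8% lower and 2.63% higher with the mean of log2(FPKM + 1), and 12.5% higher in cells without Y-linked counts. At 1.5-fold it was 16.4% lower and 12.3% higher, over all genes with a count 23.3% and 19.2%, and with a minimum of 5 FPKM 4.93% and 3.06%. At 10 CPM Sox2 was detected in 7 pPrE cells in place of 13, and Prdm14 in 3 in place of 6. The order of levels was the same with the longest transcript as length, although Pou5f1 went from 358 to 590 FPKM and Klf5 from 38.5 to 59.7, with Klf2 at 26.8 under both. No paired analysis was possible because the labels give no replicate numbers and 1 group. With 1 sample and no embryo labels, differences between embryos are not covered by any error given here.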
